A study of Mus musculus with 4 samples.

Results

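The interferon regulatory factors are a family of transcription factors, and 8 of them, Irf1, Irf2, Irf3, Irf4, Irf5, Irf7, Irf8 and Irf9, were followed in microglia of mouse pups at postnatal day 11. They were picked by name from the 20308 genes in the deposited count tables. All 8 were listed in each of the 4 tables, and all 8 were among the 15097 genes tested. Microglia are the resident macrophages of the brain. The libraries compared were Pd1fl/fl replicates 1 and 2, the controls, with loxP-flanked ("floxed") alleles of Pdcd1, which encodes the inhibitory receptor PD-1, and replicates 2 and 3 labelled Pd1cKO-Cx3, a conditional knockout of Pdcd1. The latter pair is called the Pd1cKO-Cx3-labelled libraries. The labels do not say what drives the deletion beyond "Cx3", whether controls had the driver, or whether animals were pooled. The series title names the question behind the comparison as PD-1 in the pruning of brain vessels by microglia. Nothing in the labels ties a replicate to its own animal, so the p-values measure the spread between these samples, which may be technical.

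Members of the family share a DNA-binding domain at the N terminus, whose tryptophans contact GAAA cores in promoters, and differ in what switches them on. IRF3 and IRF7 wait in the cytoplasm, are phosphorylated after viral or other nucleic acids are sensed, and then turn on type I interferon genes. Secreted interferon acts through its receptor on STAT proteins, which join IRF9 to form the complex ISGF3, and ISGF3 drives the interferon-stimulated genes, Irf7 among them. IRF1 activates and IRF2 mostly antagonises interferon-responsive promoters. IRF8 and IRF4 bind DNA mainly with a partner such as PU.1, and mice that lack IRF8 have fewer and abnormal microglia. IRF5 acts below Toll-like receptors and MyD88 on inflammatory genes.

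The promoter windows of 4 members are shown because they are the windows with a match to either of 2 interferon motifs, plus that of Irf7, the member with the largest fold difference between the genotypes. The windows are RefSeq's, on GRCm38.p6, from 250 bases before to 50 bases after an annotated start, and all 8 members had at least 1 window (11 in all). Capitals mark GAAANNGAA, the core of the interferon response element, or TTCNNNGAA, the gamma-activated sequence bound by STAT dimers, each searched on both strands. Irf1 and Irf8 each had a further window with no match, not shown. The Irf1 window lies at chr11:53769764-53770063 on the + strand, the Irf2 window at chr8:46739495-46739794 on the + strand, the Irf8 window at chr8:120736108-120736407 on the + strand and the Irf7 window at chr7:141266375-141266674 on the - strand.
Irf1: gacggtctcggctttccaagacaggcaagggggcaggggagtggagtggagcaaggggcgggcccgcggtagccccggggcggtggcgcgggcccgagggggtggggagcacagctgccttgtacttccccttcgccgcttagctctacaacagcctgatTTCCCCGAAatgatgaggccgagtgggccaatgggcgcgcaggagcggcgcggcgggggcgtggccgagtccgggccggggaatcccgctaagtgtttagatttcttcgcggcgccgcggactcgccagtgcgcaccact
Irf2: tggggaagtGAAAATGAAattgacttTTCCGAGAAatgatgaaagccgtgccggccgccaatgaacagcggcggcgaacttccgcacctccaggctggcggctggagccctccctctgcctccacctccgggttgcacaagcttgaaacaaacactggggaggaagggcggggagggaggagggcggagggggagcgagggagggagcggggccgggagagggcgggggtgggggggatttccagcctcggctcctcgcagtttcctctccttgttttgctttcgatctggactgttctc
Irf8: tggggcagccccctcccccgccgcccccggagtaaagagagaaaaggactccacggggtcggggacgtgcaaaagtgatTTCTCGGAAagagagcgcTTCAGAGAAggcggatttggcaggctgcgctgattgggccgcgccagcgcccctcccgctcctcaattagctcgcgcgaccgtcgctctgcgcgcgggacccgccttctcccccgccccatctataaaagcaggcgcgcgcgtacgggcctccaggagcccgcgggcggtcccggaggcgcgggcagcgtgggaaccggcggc
Irf7: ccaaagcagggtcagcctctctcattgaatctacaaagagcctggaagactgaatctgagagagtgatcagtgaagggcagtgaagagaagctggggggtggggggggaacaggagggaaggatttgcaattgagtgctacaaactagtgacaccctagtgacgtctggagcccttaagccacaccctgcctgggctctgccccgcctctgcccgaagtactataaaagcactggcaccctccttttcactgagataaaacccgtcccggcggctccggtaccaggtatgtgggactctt

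GAAANNGAA was present in the window of 1 member, Irf2, with its first base at position -241 relative to the start. It was present in 8.56% of all 32851 windows and in a window of 9.76% of 27025 genes. TTCNNNGAA was present for 3 members, at -224 in Irf2, at -171 and -153 in Irf8 and at -90 in Irf1, and in 8.3% of all windows and 9.55% of genes. No capital stands in the Irf7 window, which says only that these letters are not within this window. The printed windows of Irf1, Irf2 and Irf8 were rich in G and C, with 69.3%, 62.7% and 70%, beside a median of 52.7% over all windows. The Irf7 window, with 55%, was near that median. The window of Irf5 held 74.7% and the further window of Irf1 held 75%. Irf4 and Irf3 had 61% and 58.3%. The windows of Irf9, with 55.3% and 52.7%, and the further window of Irf8, with 54.7%, were at or near the median.

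The libraries held 14258420 to 15908954 counts each. The targeted gene went against the labels: Pdcd1, which encodes PD-1, had 0 and 43 counts in the controls and 179 and 154 counts in the Pd1cKO-Cx3-labelled libraries. Its log2 fold change was 2.95 ± 1.48 (SE), with an edgeR adjusted p = 0.695. Whether the reads fall in the deleted part was not tested, and directions given here therefore follow the labels alone. Pd1fl/fl replicate 1 carried the female transcript Xist at 13374 counts and the Y-linked Ddx3y at 0, whereas the other 3 libraries had 0 counts of Xist and 1891 to 2064 of Ddx3y. Sex thus differs within the control group. All 12 microglial marker genes were detected in every library. Their summed level was 67305 and 66029 CPM (counts scaled to the same library total) in the controls, and lower, at 53475 and 50546.5 CPM, in the Pd1cKO-Cx3-labelled libraries. In these bulk samples, fewer cells of a type and less RNA per cell cannot be told apart. The 10 markers of border-associated macrophages summed to 466 and 549.5 CPM in the controls and to 738 and 732 CPM in the other group. Most of that sum was Mrc1, whose groups overlapped, at 310 and 429 against 404 and 379 CPM. All 9 tested genes of the list had a positive log2 fold change, with a median of 1.30. Both Pd1cKO-Cx3-labelled libraries lay above both controls for 7 of them, beside 21.3% of genes tested. The edgeR test described below called 0 of them.

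Between the genotypes, edgeR's quasi-likelihood test with Benjamini-Hochberg adjustment called 0 of the 8 members at 0.05, beside 6 of 15097 genes, or 0.0397% of those tested. At an unadjusted p under 0.05 stood 3 members, Irf7, Irf9 and Irf2, beside 8.09% of genes tested. DESeq2 called 2 members, Irf7 and Irf9, both higher in the Pd1cKO-Cx3-labelled libraries, where its background was 1.41%. Both Pd1cKO-Cx3-labelled libraries lay above both controls for 4 members, Irf1, Irf7, Irf8 and Irf9, against a background of 21.3% of genes tested. Both lay below both controls for 2 members, Irf2 and Irf3, against a background of 18.8%. For Irf4 and Irf5 the groups overlapped. The median log2 fold change of the members was 0.12, and that of all genes tested was 0.01.

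**Figure D1:**
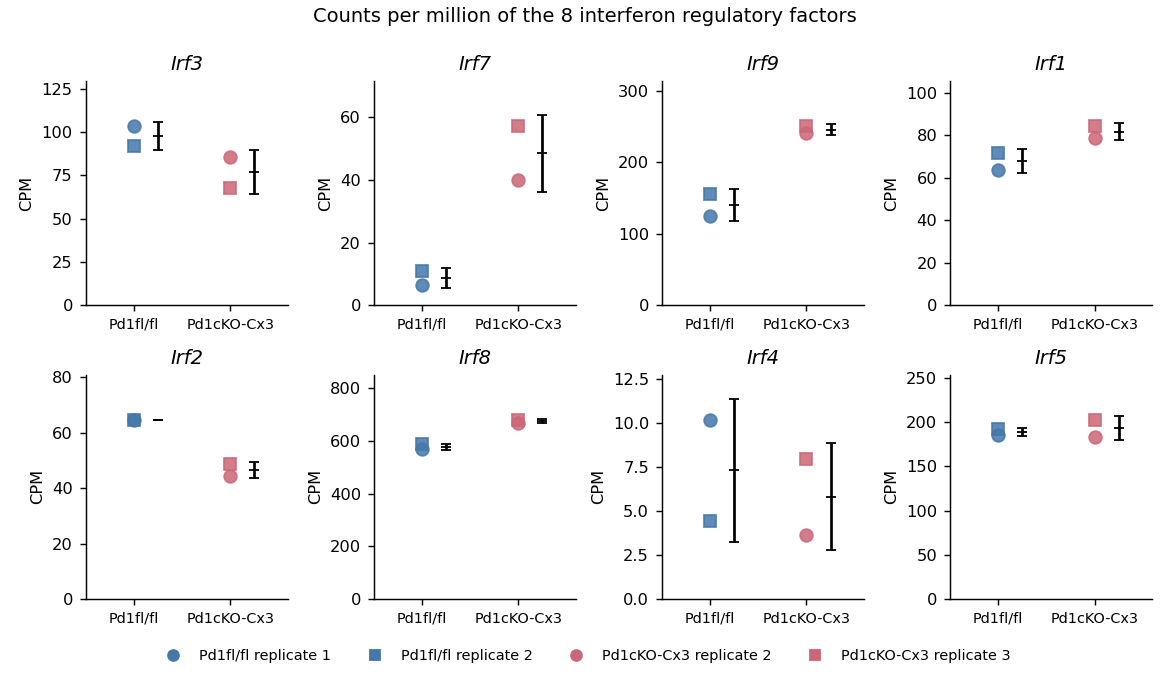
CPM (linear axis from 0) of each of the 8 interferon regulatory factors in each library. Points are libraries, and the black bars give the mean ± SD of the 2 libraries of a group. The ratio of the group means is largest for Irf7, at 6.41 and 10.9 against 39.8 and 57.3 CPM, and the groups overlap for Irf4 and Irf5.

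Irf7, at chr7:141262706-141266481 on the - strand (ENSMUSG00000025498; coordinates here and below are those of the deposited tables, read as GRCm38), encodes the factor that amplifies type I interferon production. Pd1fl/fl replicate 1 gave 102 counts and replicate 2 gave 162, whereas Pd1cKO-Cx3 replicates 2 and 3 gave 568 and 887 counts. Scaled to library totals these were 6.41, 10.9, 39.8 and 57.3 CPM. Both Pd1cKO-Cx3-labelled libraries were high and both controls were low, with no overlap. The exact Poisson 95% intervals, which cover counting error only, ran from 5.23 to 7.78 and from 9.29 to 12.7 CPM in the controls and from 36.6 to 43.3 and from 53.6 to 61.2 CPM in the other group, so the members of each pair also differed from each other by more than counting error. The means were 8.66 ± 3.18 and 48.6 ± 12.3 CPM (SD, n = 2 each), a ratio of 5.61. The log2 fold change was 2.48 ± 0.37 (SE), with a 95% interval of 1.56 to 3.40. The edgeR p was 0.00067 before and 0.225 after adjustment over all genes tested, and DESeq2's adjusted p was 3.93e-07 for the same log2 fold change of 2.48. The 2 tools thus differ on this call.

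Irf9, at chr14:55603571-55610030 on the + strand (ENSMUSG00000002325), encodes the DNA-binding subunit of ISGF3. Its level was 125 and 156 CPM in the controls and 241 and 251 CPM in the Pd1cKO-Cx3-labelled libraries. Both libraries of the second group lay above both controls. The means were 140.4 ± 22.3 and 246 ± 7.22 CPM (SD, n = 2 each), a ratio of 1.75, and the log2 fold change was 0.80 ± 0.15 (SE), with a 95% interval of 0.42 to 1.18. The adjusted p was 0.361 in edgeR and 0.000527 in DESeq2.

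Irf3, at chr7:44997648-45002848 on the + strand (ENSMUSG00000003184), encodes the constitutively made partner of IRF7 in the first wave of interferon induction. It stood at 104 and 92.1 CPM in the controls and at 85.7 and 67.8 CPM in the Pd1cKO-Cx3-labelled libraries. The second group was lower, without overlap, but the gap between its own libraries was wider than the gap to the nearest control. The log2 fold change was -0.36 ± 0.18 (SE), with a 95% interval of -0.81 to 0.09, and edgeR's adjusted p was 0.702. Irf3 and Irf7 thus had values on opposite sides of their controls.

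Irf1, at chr11:53770014-53778374 on the + strand (ENSMUSG00000018899), encodes an activator that interferon-gamma induces. It was measured at 63.8 and 71.7 CPM in the controls and at 78.9 and 84.4 CPM in the Pd1cKO-Cx3-labelled libraries. The second group was the higher one, without overlap. The log2 fold change of 0.26 ± 0.16 (SE), with a 95% interval of -0.14 to 0.67, had an edgeR adjusted p of 0.773.

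Irf2, at chr8:46739732-46847458 on the + strand (ENSMUSG00000031627), encodes the factor that competes with IRF1 for its sites. Its control values of 64.6 and 64.7 CPM were nearly equal, and the Pd1cKO-Cx3-labelled libraries stood at 44.4 and 48.6 CPM. Both were below both controls. The means were 64.6 ± 0.0982 and 46.5 ± 2.99 CPM (SD, n = 2 each), a ratio of 0.720, and the log2 fold change was -0.48 ± 0.18 (SE), with a 95% interval of -0.92 to -0.04. The edgeR p was 0.0362 before adjustment and 0.575 after it.

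Irf8, at chr8:120736358-120756694 on the + strand (ENSMUSG00000041515), encodes the lineage factor of microglia. It had the most counts of the family, 9075 and 8718 in the controls and 9544 and 10549 in the Pd1cKO-Cx3-labelled libraries. In CPM these were 570.4 and 587 against 669 and 681. The groups did not overlap, and the spread within each was small, with means of 579 ± 11.6 and 675 ± 8.34 CPM (SD, n = 2 each) and a ratio of 1.17. The log2 fold change was 0.21 ± 0.09 (SE), and edgeR's p was 0.0524 before and 0.626 after adjustment. Irf8 was thus higher in the libraries in which the microglial marker sum was lower.

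Irf4, at chr13:30749226-30766976 on the + strand (ENSMUSG00000021356), is the close relative of Irf8 best known from lymphocytes and alternatively activated macrophages. It had 162 and 66 counts in the controls and 52 and 123 counts in the Pd1cKO-Cx3-labelled libraries, or 10.2, 4.44, 3.65 and 7.94 CPM. The groups overlapped, and each held 1 high and 1 low library whose Poisson intervals were apart. The log2 fold change of -0.34 ± 0.64 (SE) had a 95% interval of -1.93 to 1.24, which reaches past 1 log2 unit on either side of 0. Without Pd1fl/fl replicate 1 the value was 0.37, and without Pd1cKO-Cx3 replicate 2 it was 0.11, both of the opposite sign.

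Irf5, at chr6:29526625-29541871 on the + strand (ENSMUSG00000029771), encodes the factor linked to inflammatory states of macrophages and microglia. Its levels of 186 and 192 CPM in the controls and 184 and 203 CPM in the Pd1cKO-Cx3-labelled libraries overlapped. The log2 fold change was 0.02 ± 0.12 (SE), with a 95% interval of -0.28 to 0.33 and an edgeR adjusted p = 0.991. Leaving out Pd1fl/fl replicate 1 or Pd1cKO-Cx3 replicate 3 turned its sign, to -0.0060 and -0.04.

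**Figure D2:**
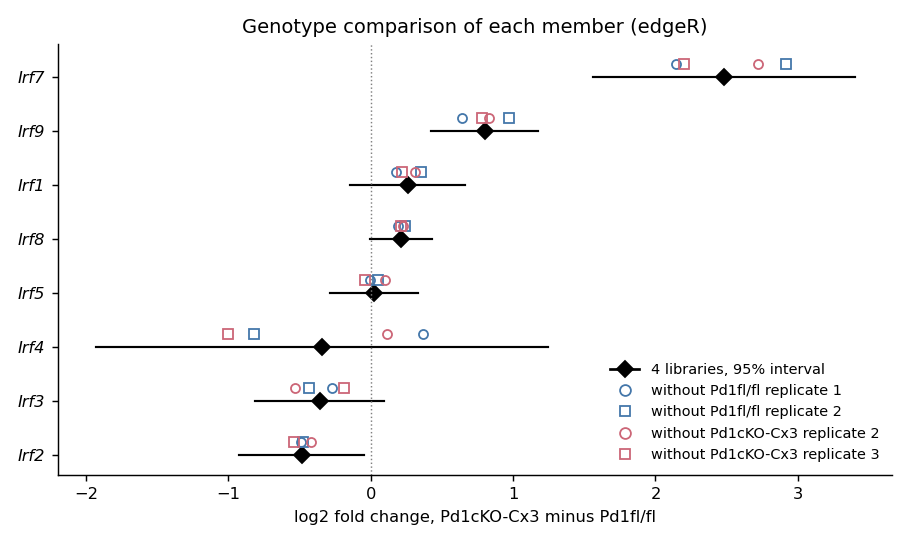
Log2 fold change of each member between the genotypes (Pd1cKO-Cx3-labelled libraries minus Pd1fl/fl; edgeR). Black diamonds with bars give the fit of the 4 libraries with its 95% interval, and open symbols give the same value with 1 library left out. Irf7 stays between 2.14 and 2.91, and the symbols of Irf4 and Irf5 lie on both sides of 0.

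The authors' deposited tables compare 1 Pd1cKO-Cx3-labelled library with 1 control each, and the 4 comparisons share libraries. A gene was marked there exactly where its p-value was under 0.05 with a log2 fold change beyond 1 in size. In the authors' deposited table of replicate 2 against Pd1fl/fl replicate 1, 2 members were marked, Irf7 at a log2 fold change of 2.64 and Irf4 at -1.48, beside 29.6% of the genes listed. In that of replicate 2 against Pd1fl/fl replicate 2, 1 member was marked, Irf7 at 1.87, beside 27.6%. In the authors' deposited table of replicate 3 against Pd1fl/fl replicate 1, 2 were marked, Irf7 at 3.16 and Irf9 at 1.01, beside 33.2%. In that of replicate 3 against Pd1fl/fl replicate 2, 1 was marked, Irf7 at 2.39, beside 31.6%. Irf4 was at 0.84 in this last authors' deposited table, so its sign turned between tables. Irf7 was the 1 member marked in all 4 tables.

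Levels were compared between members per kilobase of exon (RPKM: CPM divided by the summed length of all annotated exons). Irf8 was the highest member in each library, at 80.9 and 83.2 RPKM in the controls and 94.9 and 96.5 RPKM in the Pd1cKO-Cx3-labelled libraries, above 96.8% to 97.3% of the 15080 genes tested that have a length. Irf5 came next, at 63.2 to 69.9 RPKM over the 4 libraries. Irf4 was the lowest on average, at 0.744 to 2.08 RPKM, above 19.0% to 37.5% of genes. Between these ends, Irf3 had 28.4 ± 2.35 RPKM in the controls and 22.3 ± 3.68 in the other group, and Irf1 had 17.0 ± 1.40 and 20.5 ± 0.977 RPKM (SD, n = 2 each). Irf9 had 26.1 ± 4.13 and 45.7 ± 1.34 RPKM, and Irf2 had 8.74 ± 0.0133 and 6.29 ± 0.404 RPKM. Irf7 covered the widest span of ranks in the family, with 1.70 and 2.89 RPKM in the controls and 10.5 and 15.2 RPKM in the Pd1cKO-Cx3-labelled libraries, or from above 33.4% to above 80.5% of genes.

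**Figure D3:**
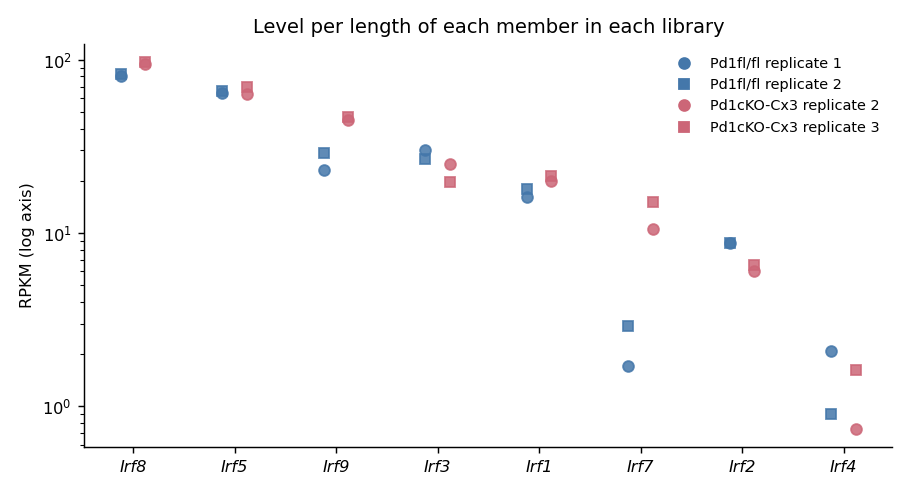
Level per length (RPKM, log axis) of each member in each library, with members ordered by their mean over the 4 libraries. Irf8 and Irf5 form the top, at 63.2 to 96.5 RPKM, and Irf7 is the member whose genotype groups are furthest apart on this log axis.

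Over all 4 libraries the order from high to low was Irf8, Irf5, Irf9, Irf3, Irf1, Irf7, Irf2 and Irf4. Of its 7 neighbouring pairs, 4 did not overlap over the libraries, namely Irf8 over Irf5, Irf5 over Irf9, Irf1 over Irf7 and Irf2 over Irf4. Irf9 with Irf3, Irf3 with Irf1, and Irf7 with Irf2 overlapped. With the longest annotated transcript as the length, Irf2 came above Irf7, and 3 neighbouring pairs did not overlap. In the controls alone, Irf3 and Irf9 were not told apart, and neither were Irf7 and Irf4 at the bottom. In the Pd1cKO-Cx3-labelled libraries, Irf9 stood above Irf3 and Irf7 stood above Irf2, with no overlap in either pair by exon length.

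The summed level of the 8 members was 227 and 236 RPKM in the controls and 265 and 277 RPKM in the Pd1cKO-Cx3-labelled libraries. Irf8 took 34.8% to 35.8% of that sum in the 4 libraries, with overlapping groups, and Irf1 took 7.08% to 7.65%. Irf9 took 10.2% and 12.3% in the controls and 16.9% and 16.8% in the other group, and Irf7 took 0.750% and 1.23% against 3.98% and 5.47%. The shares of Irf5, at 28.2% and 28.1% against 23.9% and 25.2%, and of Irf3, at 13.3% and 11.3% against 9.40% and 7.10%, were lower. A share falls where other members take more of the sum, and the CPM of Irf5 itself overlapped between the groups.

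**Figure D4:**
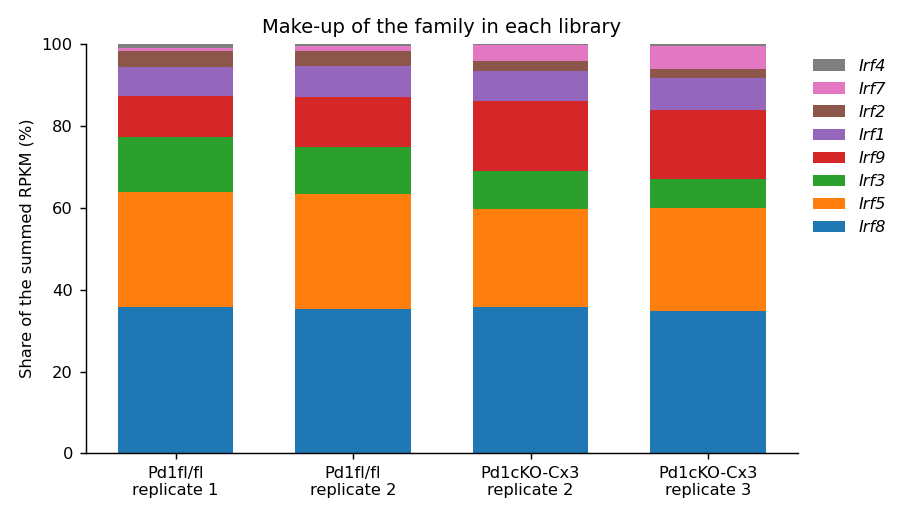
Share of the summed RPKM of the 8 interferon regulatory factors taken by each member (percent, stacked to 100) in each library. Irf8 holds 34.8% to 35.8% in every library, and the segments of Irf9 and Irf7 are wider in both Pd1cKO-Cx3-labelled libraries.

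Ratios within a library do not depend on scaling between libraries. The ratio of Irf7 to Irf3 in RPKM, the 2 factors that act directly on interferon genes, was 0.0565 and 0.108 in the controls and 0.424 and 0.770 in the Pd1cKO-Cx3-labelled libraries. Irf3 thus exceeded Irf7 in all 4 libraries, by less in the second group. The ratio of the activator Irf1 to its antagonist Irf2 was 1.84 and 2.06 against 3.31 and 3.23. The ratio of Irf9 to Irf3 was 0.770 and 1.08 against 1.80 and 2.37. Those 3 ratios were higher in both Pd1cKO-Cx3-labelled libraries, and the ratio of Irf8 to Irf4, at 38.9 and 91.8 against 128 and 59.6, overlapped. These ratios follow from the member values given above and were not tested.

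Several members share exon sequence with a neighbouring gene, and whether counting used strand is not stated in the labels or notes. Irf5 shares 411 bases, 14.2% of its exon length, with Tnpo3 on the opposite strand, a nuclear import receptor whose log2 fold change was 0.00 ± 0.20 (SE). Irf9 shares 123 bases, or 2.28%, with Rnf31 on its own strand, a subunit of the linear ubiquitin ligase. Rnf31 stood at 37.6 and 46.9 CPM in the controls and 61.9 and 60.3 CPM in the Pd1cKO-Cx3-labelled libraries, the same direction as Irf9, with an edgeR adjusted p = 0.604. On the opposite strand, Irf3 shares 88 bases, or 2.56%, with Bcl2l12 (log2 fold change -0.57 ± 0.43, SE). Irf7 likewise shares 45 bases, or 1.19%, with Phrf1 (-0.29 ± 0.23). Irf1 shares 135 bases, or 3.4%, with a predicted gene on the opposite strand that had 12 and 0 against 7 and 6 counts. Reads in the bases shared by Irf9 and Rnf31 cannot be told apart by strand. For the opposite-strand pairs, that depends on the unstated use of strand.

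Of the genes around the family, taken by role, the interferon ligands were hardly seen. Of 10 ligand genes, 1 was listed in the tables, Ifnk, with 0 and 11 counts in the controls and 2 and 0 in the Pd1cKO-Cx3-labelled libraries. Of 6 receptor chains, 5 were tested, edgeR called 0, 0 had an unadjusted p under 0.05 and DESeq2 called 0. Ifngr1, a chain of the interferon-gamma receptor, had 2685 ± 49.4 CPM in the controls and 2440.1 ± 80.3 CPM in the other group (SD, n = 2 each), with an adjusted p = 0.651 in edgeR. Ifnar1, a chain of the type I receptor, was at 132 ± 6.73 and 133 ± 0.904 CPM. The median of the receptors was 0.01 on the log2 scale, the same as that of all genes tested.

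Of 6 Janus kinases and STATs, edgeR called 0, 2 had an unadjusted p under 0.05, and DESeq2 called 2, Stat2 among them. Stat2, a subunit of ISGF3, had 39.7 and 61.5 CPM in the controls against 111 and 98.99 CPM in the Pd1cKO-Cx3-labelled libraries, a log2 fold change of 1.04 ± 0.25 (SE), for which edgeR gave an adjusted p = 0.464. Like Irf9, it stood above both controls in both libraries. Jak2, the kinase of the interferon-gamma receptor, was at 0.68 ± 0.29 (SE) on the log2 scale, and edgeR gave an adjusted p = 0.646.

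Of 16 adaptors and kinases that act on IRF3, IRF5 and IRF7, 14 were tested. EdgeR and DESeq2 called 0, 1 had an unadjusted p under 0.05, and the median log2 fold change was -0.06. That 1 was Traf3, a ubiquitin ligase between the adaptors and the kinase TBK1, at 21.96 ± 3.50 CPM in the controls and 46.5 ± 9.03 CPM in the other group (SD, n = 2 each; log2 fold change 1.07 ± 0.26, SE; edgeR adjusted p = 0.482). Of the partners that bind DNA with IRF4 and IRF8, 6 of 7 were tested, and edgeR and DESeq2 called 0, with 0 at an unadjusted p under 0.05. Spi1, which encodes PU.1, was at 107 ± 30.3 and 143 ± 29.8 CPM, with an edgeR adjusted p = 0.764. Of 5 co-regulators that bind these factors, edgeR and DESeq2 called 0, and 1 had an unadjusted p under 0.05. It was Irf2bp2, a corepressor of IRF2, at 180.3 and 189 CPM in the controls and 124 and 136 CPM in the Pd1cKO-Cx3-labelled libraries (log2 fold change -0.51 ± 0.13, SE; edgeR adjusted p = 0.4997). Irf2 and Irf2bp2 were both below both controls.

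Among 10 feedback inhibitors edgeR called 0, with 1 at an unadjusted p under 0.05, and DESeq2 called 1, Usp18. Usp18, the protease that shuts off the type I receptor, had 8.42 and 14.3 CPM in the controls and 39.8 and 57.3 CPM in the other group, a log2 fold change of 2.09 ± 0.36 (SE), for which edgeR gave an adjusted p = 0.312. Socs3, which restrains cytokine receptors, was at -0.49 ± 0.22 (SE) on the log2 scale, and edgeR gave an adjusted p = 0.659.

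Of 20 target genes of ISGF3 or IRF3, edgeR called 1, Oas2, and DESeq2 called 17, all higher in the Pd1cKO-Cx3-labelled libraries. All 20 lay above both controls, and 19 had an unadjusted p under 0.05. Their median log2 fold change was 2.27, beside 0.01 over all genes tested. Oas2, an oligoadenylate synthetase of the antiviral response, rose from 15.02 ± 3.99 to 178 ± 26.7 CPM (SD, n = 2 each), with an edgeR adjusted p = 0.0369. Without Pd1cKO-Cx3 replicate 2 its log2 fold change was 3.40 with an edgeR adjusted p = 0.0957, and without replicate 3 it was 3.71 with an adjusted p = 0.0752, beside 3.56 with all 4 libraries. Each of those fits leaves 1 library in a group, which is assumed to vary like the other group. Ifit1, Ifit2 and Ifit3, which encode antiviral RNA-binding proteins, had log2 fold changes of 3.64 ± 0.37, 2.61 ± 0.21 and 2.72 ± 0.24 (SE), with edgeR adjusted p-values of 0.0958, 0.0542 and 0.0703. Usp18 and Isg15 stand in this list and among the inhibitors. The list was chosen with these results known, so its count is a description.

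Of 9 IRF1 target genes, 8 were tested and edgeR called 0, with 5 at an unadjusted p under 0.05. DESeq2 called 2 of them, and the median log2 fold change was 0.77. B2m, the light chain of MHC class I, was at 2158 ± 55.4 and 3404 ± 99.7 CPM (SD, n = 2 each), with an edgeR adjusted p = 0.0958. Gbp2, a guanylate-binding protein, was at 15.6 ± 0.992 and 36.7 ± 3.89 CPM, with an edgeR adjusted p = 0.401. Among 5 genes named as dependent on IRF5 or IRF8 in mouse microglia, edgeR called 1, the fractalkine receptor gene Cx3cr1. It was at 10869 ± 856 CPM in the controls and 4479 ± 253 CPM in the other group, with an adjusted p = 0.0251. The label of that group names "Cx3", and whether controls had the driver is not stated. The part of the driver in the Cx3cr1 value was not tested. P2ry12, a purinergic receptor and microglial marker, was at -0.46 ± 0.05 (SE) on the log2 scale, with 0.0958 as its adjusted p in edgeR, whereas Tlr2 and P2rx4 were at 0.19 ± 0.14 and 0.21 ± 0.18. DESeq2 called 2 of these 5, both lower.

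**Figure D5:**
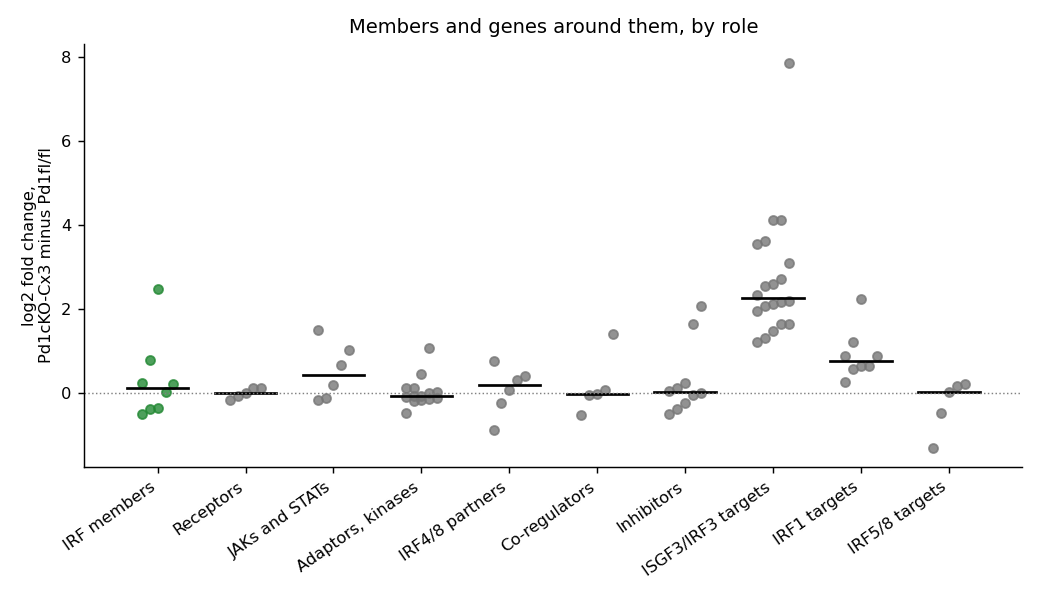
Log2 fold change (Pd1cKO-Cx3-labelled libraries minus Pd1fl/fl; edgeR) of the 8 members (green) and of tested genes of each list around them (grey), with the median of each list as a bar. The median is 2.27 for the ISGF3 and IRF3 targets, 0.77 for the IRF1 targets and 0.12 for the members, and the other lists lie between -0.06 and 0.43.

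Some of the summed marker lists of other cells differed along the same split of libraries, and others did not. A sum mostly follows its most abundant genes. Summed markers of mural cells and fibroblasts were at 77.1 and 45.4 CPM in the controls and 173 and 172 CPM in the Pd1cKO-Cx3-labelled libraries. Blood monocyte and neutrophil markers, of which 8 of 10 were listed, summed to 50.03 and 29.6 against 91.0 and 79.8 CPM. Plac8, at 16.8 and 17.3 against 71.1 and 67.3 CPM, was the 1 gene of that list above both controls, 2 of its 7 tested genes had a positive log2 fold change, and the list median was -0.49. Dendritic cell markers, 7 of 10 listed, summed to 296 in each control and to 319.5 and 331 CPM. Most of that sum was Tcf4, at 262 and 247 against 284 and 306 CPM, and the median of the 5 tested genes was -0.35, with 1 of them positive. Endothelial markers summed to 125 and 90.2 against 174 and 134 CPM, and 8 of 12 had a positive log2 fold change. Markers of B and plasma cells, 8 of 10 listed with Pax5 and Jchain missing, summed to 478 and 445 against 429 and 439 CPM, and Ms4a1, Mzb1 and Ebf1 were at 0 in the controls alone. T and NK cell markers, 2 of 10 listed, summed to between 0 and 4.28 CPM, with overlapping groups. Cd4, the 1 tested gene of that list, was at 0 in both controls and at 3.93 and 1.10 CPM in the other group. Trbc2 was at 0 and 1.75 against 0.351 and 0 CPM. The sums of neuronal, astrocyte and oligodendrocyte markers also overlapped, at 734 and 486 against 1014 and 485 CPM. Most of that sum was Mbp and Slc1a3, whose groups overlapped. Of the 10 genes of that list, all tested, 9 had a positive log2 fold change, and the list median was 1.11. Both Pd1cKO-Cx3-labelled libraries lay above both controls for 5 of them, beside 21.3% of genes tested, and edgeR called 0. Mitochondrial genes took 1.23% and 1.02% of counts in the controls and 1.48% and 1.601% in the other group. The part of these differences, and of sex, in the values of the members was not tested.

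For the members whose groups did not overlap, the genes with the most similar profile were found among 9395 tested genes of at least 5 CPM on average. Genes with predicted or clone-type symbols, such as those of the Gm and Rik kinds, had been left out of that set. The measure was the root mean square distance between log2 CPM profiles over the 4 libraries, each centred on its own mean, so a small distance over 4 points is common for genes that differ little. For Irf7 these were Ifi47 at 0.0846, Oasl2 at 0.114 and Tgtp2 at 0.173, an interferon-induced GTPase, an oligoadenylate synthetase-like gene and another interferon-induced GTPase. For Irf9 they were Ddx31, Ctdp1 and Vapb, at 0.0194 to 0.0376. For Irf2 they were Nipsnap2, Krr1 and Irf2bp2, at 0.0241 to 0.0272, and for Irf3 C87436, Mertk and Gpatch8, at 0.0150 to 0.0227. For Irf8 they were Gbf1, Rpl7a and Nucb1, at 0.00557 to 0.0126, and for Irf1 Ints13, Bid and Ccdc58, at 0.00218 to 0.0118.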

How the data were processed

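RNA of microglia isolated at postnatal day 11 was sequenced, with 2 libraries per genotype. The authors deposited 4 tables that each pair 1 Pd1cKO-Cx3-labelled library with 1 control. Per the file headers these hold raw counts per gene, CPM, a ratio and log2 fold change of CPM, and a p-value from a test whose name is not stated. Tools named in the submitters' processing notes, with no role, are HTSeq 0.6.0, TopHat2 2.0.12 and Bowtie2 2.2.3, and the build named is mm9. Of 20276 gene identifiers, 92.1% had the GENCODE M21 position on GRCm38, so coordinates are read as GRCm38.

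Each library was used once, since its counts showed 0 differences between its tables. Tables list a gene if neither of its counts is below 1 or 1 of them reaches 5 (0 exceptions in 74515 pairs), so a gene missing for a library had at most 4 counts and was given 0. This applied to 3158 genes. Symbols turned into dates were restored for 22 genes.

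Counts were tested with edgeR 4.0.16 in R 4.3.3 (TMM factors, filterByExpr, quasi-likelihood, Benjamini-Hochberg at 0.05 over 15097 genes) and with DESeq2 1.42.0 as an alternative; the edgeR step was tested on simulated data. CPM here is the count scaled by the library total. RPKM divides it by the GENCODE M21 exon union. Fold changes are Pd1cKO-Cx3-labelled libraries minus Pd1fl/fl. Poisson intervals cover counting error only.

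The members and lists were chosen with earlier results of these data known. Genes named are the members, in each list those past the threshold and those among the 4 with the smallest p that help describe it, named genes overlapping a member, the 3 nearest profiles of each member whose groups did not overlap (prior count 2), and Pdcd1. Ifnk, Ifnar1, Xist, Ddx3y and genes of the marker lists were named outside that rule after their values were seen. Protein sequences were not analysed here. Some genes of the lists are not reported here by name.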

Additional observations from a re-analysis of the deposited data

How the results depend on the processing

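The direction of Irf1, Irf2, Irf3, Irf7, Irf8 and Irf9 held under all 10 alternatives to the edgeR fit. With 1 library left out, log2 fold changes ran from 2.14 to 2.91 for Irf7, 0.64 to 0.97 for Irf9, 0.18 to 0.35 for Irf1, 0.19 to 0.24 for Irf8, -0.54 to -0.19 for Irf3 and -0.54 to -0.42 for Irf2. Irf4 ran from -1.002 to 0.37 and Irf5 from -0.04 to 0.10. Irf4 turned positive without Pd1fl/fl replicate 1 (0.37) and without Pd1cKO-Cx3 replicate 2 (0.11), and Irf5 turned negative without Pd1fl/fl replicate 1 (-0.0060) and without Pd1cKO-Cx3 replicate 3 (-0.042). Of the genes beside a member, Tnpo3 turned negative with upper-quartile factors (-0.021), with at least 5 CPM in 2 libraries (-0.0071), without Pd1fl/fl replicate 1 (-0.20) and without Pd1cKO-Cx3 replicate 2 (-0.032), and Phrf1 ran from -0.63 to 0.0018 with 1 library left out, turning positive without Pd1cKO-Cx3 replicate 3. DESeq2 called 220 genes, 2 members (Irf7 at 2.48 and Irf9 at 0.7997) and 23 genes of the lists around them, where edgeR called 6, 0 and 2. With no low-count filter edgeR called 32 genes, 12 of them in the lists, and with at least 5 CPM in 2 libraries also 32 and 12; the cause was not tested. Leaving out 1 library gave 4 to 21 genes, the highest without Pd1fl/fl replicate 2, and 1 to 5 genes of the lists. Without Pd1fl/fl replicate 2, the control left was the library with Xist and no Ddx3y, so sex and genotype cannot be told apart in that fit. Irf7 was at 2.91 and Irf9 at 0.97 there, the top of their ranges. Without Pd1fl/fl replicate 1, all libraries left carried Ddx3y, and Irf7 was at 2.14 and Irf9 at 0.64, the bottom of their ranges. With all 4 libraries, adjusted p over the other edgeR settings was 0.0608 to 0.258 for Irf7 and 0.152 to 0.422 for Irf9. As an alternative chosen after seeing the data, members whose groups did not overlap numbered 6 of 8 with all libraries, where 40.1% of genes tested did not, and 6 to 8 with 1 library left out, where 63.4% to 74% did not. No paired analysis was possible because the groups share only replicate number 2.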

Other observations

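In the introns of Irf2, the antisense transcript Gm45479 stood at 9.87 and 12.1 CPM in the controls and 5.96 and 4.97 CPM in the Pd1cKO-Cx3-labelled libraries (log2 fold change -1.02 ± 0.41, SE; edgeR adjusted p = 0.611), the same direction as Irf2. It was picked after its values were seen, and with the use of strand unknown its reads and those of unspliced Irf2 cannot be told apart.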
